A study of Mus musculus with 8 samples.

Results

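Oxidative phosphorylation genes were taken here as the nuclear genes whose symbol in the deposited tables begins with Nduf, Uqcr, Cox4 to Cox8 or Atp5, together with Sdha, Sdhb, Sdhc, Sdhd and Cycs. There were 87 such genes among the 10690 genes listed in at least 1 table, and 85 of them were listed in all 3 tables. Of the 87, 5 carry a pseudogene symbol (Atp5k-ps2, Atp5l-ps1, Atp5l-ps2, Atp5l2-ps and Uqcrh-ps2), so 82 remained as genes of subunits and assembly factors. The values came from NIH3T3 cells, an established line of mouse fibroblasts, without any genetic change in the labels. NT cells were not treated, AS cells were kept in 250 μM sodium arsenite for 1 h, and RC4 and RC8 cells had the same 1 h of arsenite followed by recovery in normal medium for 4 h and 8 h. Each condition had 1 library of QuantSeq FWD, a kit that reads the 3′ ends of polyadenylated transcripts, and the libraries of the REV kit were not analysed here. Since no condition was repeated, no difference between conditions has a replicate check or a test, and the intervals below cover only the counting of reads in that library.

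Oxidative phosphorylation is the main route by which most animal cells make ATP. Complex I (NADH dehydrogenase) and complex II (succinate dehydrogenase) pass electrons to ubiquinone, complex III passes them to cytochrome c, and complex IV passes them to oxygen. The proton gradient built on the way drives complex V, the ATP synthase. A few subunits are encoded in mitochondrial DNA, and all genes described here are nuclear ones whose products are imported. Arsenite is an oxidative stressor that reacts with thiol groups and is known to disturb mitochondrial respiration.

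The libraries held 22441452 to 22996421 reads on listed genes. All 10 fibroblast markers were listed in the tables, with 55.8 to 10272 RPM in NT (RPM is a gene's reads scaled to the same total of reads on genes in each library), and none of 13 markers of other cell types was listed. The fibroblast markers, several of them collagen genes, had a median change of −0.83 in RC8, with 9 of 10 below 0, and their part in the results below was not tested. Among arsenite-inducible genes, Hspa1b (a heat shock protein) had 42.3 RPM in NT, 218 in AS and 2369 in RC4, so the AS and RC4 libraries went with their labels. The median gene differed from the RPM scale by −0.04 on the log2 scale in AS, while RC4 had −0.30 and RC8 had 0.01. Changes below are log2 ratios of a treated library over NT relative to the median gene of the same table, and levels are RPM. QuantSeq reads transcript ends, so these levels do not scale with length and were not divided by it. They are shares of a library, so a lower share cannot be told apart from more RNA of other genes.

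As a group, the members were slightly above the median gene in AS and RC4, with the RC4 direction turned on the RPM scale, and below it in RC8. The median change of the members was 0.15 in AS with quartiles of 0.10 and 0.21, and 78 of 87 members were above 0. The median was 0.17 in RC4, with 70 of 86 members above 0, but the RC4 value turned to −0.13 on the RPM scale, where 18 of 86 were above 0. In RC8 the median was −0.15 with a lower quartile of −0.39, and 65 of 86 members were below 0. The 95% counting interval lay wholly above 0 for 66 members in AS and 57 in RC4, and wholly below 0 for 54 members in RC8. Over all genes these counts were 2965 of 10452, 3919 of 10081 and 3846 of 10441. Intervals narrow with more reads, and members listed in AS had a median of 131 RPM in NT against 32.6 over all genes. The part of depth in these counts was not tested. Without the pseudogene copies, the 82 genes (81 in the RC4 table) took 2.06% of the reads of NT, 2.25% of AS and 1.90% of both RC4 and RC8, so the share was highest in AS and lowest in the recovery libraries.

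Few members lay past 1.5-fold. No member was at least 1.5-fold higher in AS, where 2.07% of all genes were, and 1 of 87 was at least 1.5-fold lower, against 10.2% of all genes. In RC4, 1 of 86 was higher against 15% of all genes, and 3 were lower against 17.4%. In RC8, 2 of 86 were higher against 11.1% of all genes, and 7 were lower against 12.1%. The shares of members were below the background for lower genes of AS, for both directions of RC4 and for higher genes of RC8, and near it for higher genes of AS and lower genes of RC8, and these differences were not tested. Members also had more reads than most genes, since 73 of 87 lay above the 736.5 reads of the median gene in NT, and the part of depth in these shares was not tested.

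**Figure D1:**
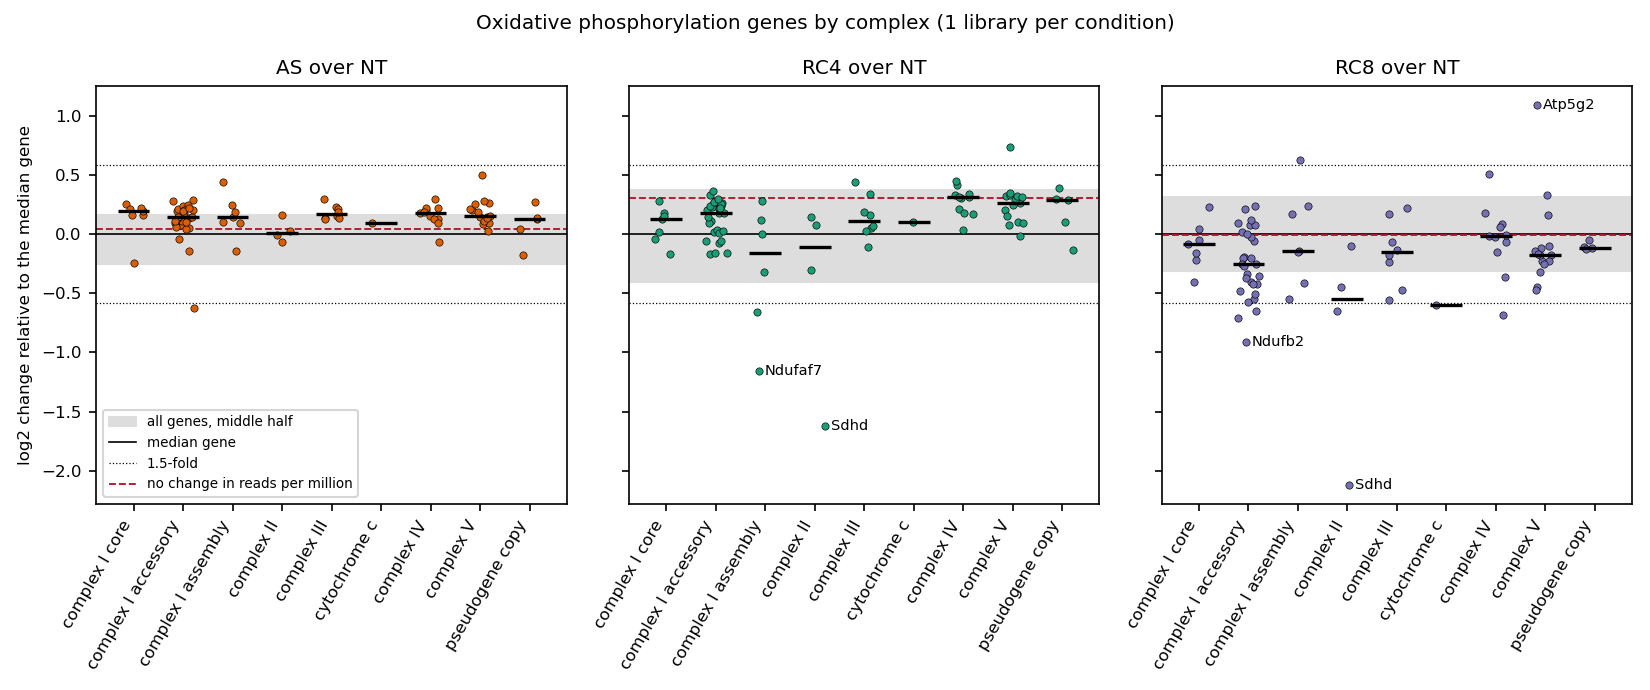
Log2 change relative to the median gene (y axis) of each member (points) by complex, for each treated library over NT. Thick lines are group medians, the grey band runs between the quartiles of all genes, dotted lines mark 1.5-fold and the dashed line marks no change in RPM. Sdhd lay below all other members in RC4 (−1.62) and RC8 (−2.12), and Atp5g2 lay highest in both (0.74 and 1.09).

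The core of complex I consists of the subunits that carry the NADH site, the flavin and the iron-sulfur clusters, and 7 nuclear core genes were listed. Their median changes were 0.19, 0.13 and −0.09 in AS, RC4 and RC8, and none passed 1.5-fold. The RC4 median was −0.18 on the RPM scale, where all 7 were below NT. Ndufs1, the core subunit that holds several iron-sulfur clusters, was the lowest member with at least 200 reads in AS. It had 65.8, 53.9, 53.9 and 56.6 RPM across NT, AS, RC4 and RC8. Its change was −0.25 in AS (95% counting interval −0.36 to −0.14), while the other 6 core genes lay between 0.16 (Ndufv1) and 0.25 (Ndufs3) there. Ndufv2, a subunit of the NADH dehydrogenase module, had 80.0, 90.6, 63.3 and 60.7 RPM across NT, AS, RC4 and RC8, with a change of −0.40 in RC8. Ndufv1, which binds NADH and flavin in the same module, went the other way in RC8 with 150.6 RPM against 127.7 in NT, a change of 0.23 (0.16 to 0.30). The intervals of Ndufv1 and Ndufv2 in RC8 did not overlap. Ndufs8, a core subunit with iron-sulfur clusters, was at −0.05 in RC8, Ndufs7 at −0.09 and Ndufs3 at 0.04. Ndufs7 was the lowest of the 7 in RC4 at −0.17.

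The 29 accessory genes of complex I, grouped by symbol and so with Ndufa4, whose product is now known as a subunit of complex IV, had medians of 0.15 in AS, 0.17 in RC4 (−0.13 in RPM) and −0.26 in RC8. In RC8 their counting intervals lay below 0 for 20 of 29 and above 0 for 5, while over all 10441 genes they lay below 0 for 3846 and above 0 for 3806. Ndufb10, an accessory subunit of the membrane arm, had 201, 215, 146 and 123 RPM across NT, AS, RC4 and RC8. It was at −0.71 in RC8 (−0.78 to −0.64), which is 1.64-fold lower than in NT relative to the median gene. Ndufa5 had 251, 264, 230 and 161 RPM across NT, AS, RC4 and RC8, with a change of −0.65 in RC8. RC8 was thus the lowest of its 4 libraries. Ndufb3 (491 RPM in NT and 331 in RC8) lay just inside the 1.5-fold limit at −0.58, and so did Ndufab1, the mitochondrial acyl carrier protein, at −0.55. Ndufa7, Ndufa9 and Ndufb9 were at 0.24, 0.21 and 0.12 in RC8, so the accessory genes did not all go the same way. Ndufa12 was among the 3 lowest members with at least 200 reads in AS, at −0.14, although its interval reached 0.02.

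Ndufb2 was the only member past 1.5-fold in AS, and its values depended on which polyadenylation sites (PASs) a table listed. The AS and RC8 tables list 1 PAS for this accessory gene and give it 123 reads in NT, 77 in AS and 67 in RC8, which are changes of −0.63 and −0.91. The RC4 table also lists a PAS typed as intronic that holds 83.4% of the gene's reads in NT. There the gene has 515 reads in NT and 533 in RC4, a change of 0.33. In the gene models of GENCODE vM1 this PAS lies in an exon of a non-coding transcript. The level of Ndufb2 in AS and RC8 is therefore that of its 3′-most PAS. Ndufb2 and Ndufs4 were the members whose NT reads differed by more than 2% between tables, and 65 of 87 had equal NT reads in all tables that list them.

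Assembly factors of complex I (Ndufaf genes) are not part of the finished enzyme, and they had lower levels than subunits, with a median of 21.8 RPM in NT. Their median changes were 0.14 in AS, −0.16 in RC4 (−0.46 in RPM) and −0.15 in RC8. Ndufaf7, a methyltransferase that modifies a core subunit during assembly, had 21.8, 22.6, 7.95 and 19.8 RPM across NT, AS, RC4 and RC8. It was 2.23-fold lower in RC4 relative to the median gene (−1.16, −1.41 to −0.91), and in RC8 its interval of −0.33 to 0.04 reached 0. Ndufaf6 had 10.3, 9.09, 5.37 and 7.87 RPM in the same order, with −0.66 in RC4 (−0.99 to −0.34) on 236 reads in NT and 123 in RC4. Ndufaf4 had 32.6, 37.6, 21.2 and 38.4 RPM across NT, AS, RC4 and RC8, so RC4 was its low point with a change of −0.32. These 3 factors were lowest in the RC4 library among the 4 libraries. Ndufaf8, a small assembly factor known to stabilise the product of Ndufaf5, had its highest level in RC8, at 123 RPM against 79.6 in NT, 88.1 in AS and 70.1 in RC4. Its change of 0.62 in RC8 (0.54 to 0.71) was the largest positive one among members with at least 200 reads in both libraries. Ndufaf5 was highest in AS at 0.44 (0.22 to 0.66) on 300 reads in NT and 393 in AS.

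Complex II is the enzyme shared by the respiratory chain and the tricarboxylic acid (TCA) cycle, and its 4 subunits differed widely. Sdhd, which anchors the complex in the inner membrane, had 57.2, 52.9, 15.1 and 13.3 RPM across NT, AS, RC4 and RC8. Relative to the median gene it was at −0.07 in AS (−0.19 to 0.04), and it was 3.07-fold lower in RC4 (−1.62, −1.80 to −1.45) and 4.33-fold lower in RC8 (−2.12, −2.30 to −1.93). The NT and AS levels were thus close, and both recovery libraries lay far below them. In RC8, only 0.201% of all genes had a change as low or lower. Sdhc, the partner of Sdhd in the membrane, had 238, 259, 204 and 224 RPM across NT, AS, RC4 and RC8, with changes between −0.10 and 0.16. Sdha, the flavoprotein that oxidises succinate, had 102, 99.1, 67.6 and 65.8 RPM across NT, AS, RC4 and RC8, with −0.30 in RC4 and −0.65 in RC8. Sdhb, the iron-sulfur subunit, was at 83.4, 82.6, 74.8 and 61.4 RPM, with −0.45 in RC8. All 4 genes of complex II were below 0 in RC8 with counting intervals below 0, and their median was −0.55. Such intervals were found for 54 of 86 members and 3846 of all 10441 genes. In AS the median of complex II was 0.01 (−0.03 in RPM), the lowest of the complexes.

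Sdhd lies on mouse chromosome 9 (NCBIM37, which is mm9; 50404443 to 50411954, minus strand), and each table lists a single PAS for it in the 3′ untranslated part of its last exon. The AS table lists this PAS at position 50404447 and the RC4 and RC8 tables list it at 50404497, and the NT reads were 1292 or 1293 in all tables. The windows of 30 bases that end at each listed PAS are shown because the largest change among the members rests on them, with the polyadenylation hexamer in capitals where there is AATAAA or ATTAAA within 40 bases.
Sdhd at chr9:50404447-50404476: atttttaAATAAAatattatataatgaaaa
Sdhd at chr9:50404497-50404526: ccaccgtgggagttgttaatgagaaagaaa
The PAS listed in AS has AATAAA 17 bases upstream, and the one listed in RC4 and RC8 has neither hexamer in its window and has a run of A in the genome just downstream (6 in a row, or 7 among 10, within 20 bases).

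**Figure D2:**
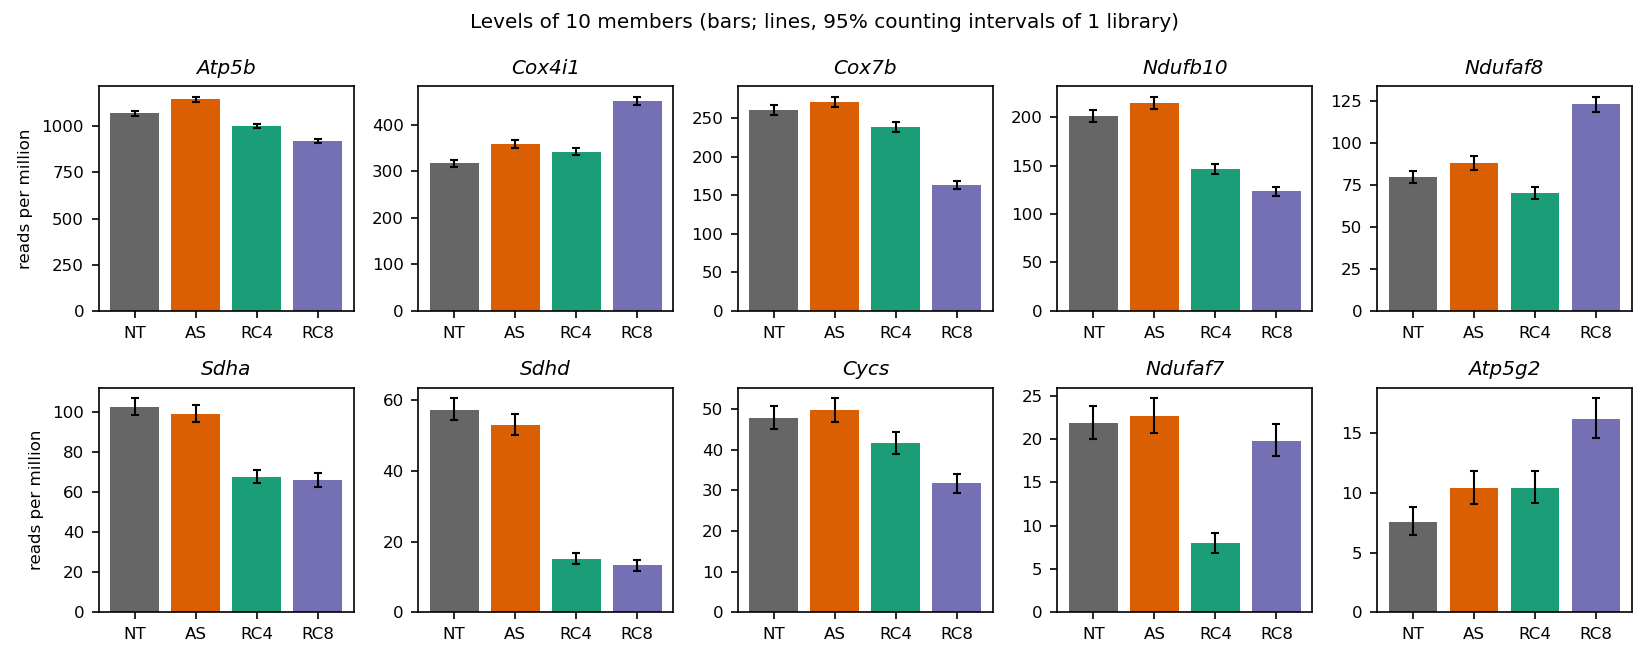
RPM (y axis, from 0) of 10 members in the NT, AS, RC4 and RC8 libraries. Lines are 95% counting intervals of 1 library. Sdhd was at 57.2, 52.9, 15.1 and 13.3 RPM, Ndufaf7 was low in RC4 alone of the 4 (7.95), and Cox4i1 and Atp5g2 were highest in RC8 (452 and 16.2).

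Complex III oxidises ubiquinol, and all 8 listed genes were above the median gene in AS, with a median of 0.17. The median was 0.11 in RC4 (−0.19 in RPM) and −0.15 in RC8. Uqcrfs1, the Rieske iron-sulfur protein, had 343, 366, 258 and 249 RPM across NT, AS, RC4 and RC8, with −0.47 in RC8 (−0.52 to −0.42). The core proteins Uqcrc1 and Uqcrc2 were at −0.13 and −0.56 in RC8, and their intervals there did not overlap. Uqcr11, a small subunit, was among the 3 highest members with at least 200 reads in AS at 0.29 and was at 0.22 in RC8, with 346, 413, 291 and 405 RPM in NT, AS, RC4 and RC8. Uqcrq, another small subunit, was among the 3 highest in RC4 at 0.44, which is 282 RPM against 257 in NT. Cycs, the electron carrier cytochrome c that also takes part in apoptosis, had 47.7, 49.6, 41.6 and 31.7 RPM across NT, AS, RC4 and RC8. Its intervals in AS and RC4 included 0, and it was 1.51-fold lower in RC8 (−0.60, −0.73 to −0.46).

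Complex IV, cytochrome c oxidase, here the 11 genes with a Cox symbol, had the highest group median of the complexes in RC4 and in RC8. All 11 were above 0 in RC4 with a median of 0.31, which was 0.01 in RPM, and the median in RC8 was −0.02. Cox4i1, a nuclear subunit with a regulatory role, had 317, 359, 342 and 452 RPM across NT, AS, RC4 and RC8. Relative to the median gene these are changes of 0.22, 0.41 and 0.50 (0.46 to 0.55 in RC8), so its level in RC8 stood above those of the other 3 libraries. Cox5a was at 0.13, 0.33 and −0.02. Cox7b had 260, 271, 238 and 163 RPM across NT, AS, RC4 and RC8, a change of −0.68 in RC8 (−0.74 to −0.62) that made it the lowest of the complex there. Cox7c was at −0.36 in RC8, on 694 RPM in NT and 541 in RC8. Cox7a2l, known for its part in supercomplexes of complexes III and IV, was among the 3 highest members in AS at 0.30 and the highest with at least 200 reads in RC4 at 0.45, and was at 0.06 in RC8.

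The ATP synthase had 15 listed genes apart from pseudogene copies, with medians of 0.15 in AS, 0.26 in RC4 (−0.04 in RPM) and −0.17 in RC8. In RC8, the counting interval lay below 0 for 12 of 15 genes and above 0 for 3, against 3846 and 3806 of all 10441 genes. Atp5b, the catalytic β subunit, had 1070, 1146, 1001 and 919 RPM across NT, AS, RC4 and RC8, and Atp5a1, the α subunit, had 775, 797, 623 and 570. Their changes in RC8 were −0.23 and −0.45. Atp5d, the δ subunit of the central stalk, was one of the 3 genes above 0 in RC8, at 0.33 (0.30 to 0.37) with 523 RPM in NT and 661 in RC8. The membrane ring of subunit c is encoded by Atp5g1, Atp5g2 and Atp5g3, whose mature products are identical. Atp5g3 had 2855, 3221, 2474 and 2531 RPM across NT, AS, RC4 and RC8. Atp5g1 had 101, 112, 98.2 and 93.3, and Atp5g2 had 7.57, 10.4, 10.4 and 16.2. Atp5g2 was at 0.50 in AS (0.21 to 0.79), while RC4 gave 0.74 (0.45 to 1.03) and RC8 gave 1.09 (0.82 to 1.36), on 171 or 174 reads in NT and 233, 239 and 372 in the treated libraries. The changes of Atp5g3 in the same order were 0.21, 0.09 and −0.18, and Atp5g1 was at −0.12 in RC8, so the 3 genes for the same product lay on both sides of 0 there.

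Of 17 genes looked for as tissue or condition isoforms, 10 were listed and 7 were in no table. The listed ones were Cox4i1, Cox6a1, Cox6b1, Cox7a2, Cox7a2l, Cox8a, Ndufa4 and the 3 genes of subunit c. Cox4i2, Cox6a2, Cox6b2, Cox7a1, Cox8b, Cox8c and Ndufa4l2 had no entry, which at the authors' minimum of 50 reads sets no finer limit. The pseudogene copies had medians of 0.13 over 5 in AS, 0.28 over 5 in RC4 (−0.02 in RPM) and −0.12 over 4 in RC8, where Atp5l-ps1 is not listed. They share near-identical sequence with Atp5k, Atp5l and Uqcrh, so how reads were divided between each copy and its parent gene is uncertain.

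Other genes of the mitochondrion, taken from lists, are given here by counts and medians. Of 39 other genes of the respiratory chain and its assembly, 37 were listed in AS and RC8 and 36 in RC4. Their medians were 0.10, −0.24 (−0.54 in RPM) and 0.00, against 0.15, 0.17 (−0.13 in RPM) and −0.15 for the members. In RC4 16 of 36 had counting intervals below 0, where 3868 of all 10081 genes did, a share near it. At least 1.5-fold lower in RC4 were 5 of 36, against 17.4% of all genes, and 1 was higher, against 15%. Among the lower ones was Tmem70, an assembly factor of the ATP synthase, at −0.62. The higher one was Sco2, a copper chaperone of complex IV, at 0.63. Of the assembly factors of complex II, Sdhaf4 was at −0.52, inside the limit, and Sdhaf1 was the lowest of the list at −1.53 (514 reads in NT and 147 in RC4) and at 0.43 in RC8. All 13 enzymes of the TCA cycle were below 0 in RC8, with a median of −0.37. Their counting intervals lay below 0 for 11 of 13, against 3846 of all 10441 genes. Idh3a, a subunit of isocitrate dehydrogenase, had 50.02 RPM in NT as given in the RC4 table, 28.8 in RC4 and 27.2 in RC8, with −0.88 in RC8, and citrate synthase (Cs) was at −0.64. The 2 lowest genes of complex II, Sdhd and Sdha, thus stood beside a TCA list that was also low in RC8.

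Mitochondrial ribosomal proteins had medians of 0.12 (79 genes) in AS, −0.09 (78 genes, −0.40 in RPM) in RC4 and −0.02 (79 genes) in RC8. In RC4 6 of these 78 genes were at least 1.5-fold lower, against 17.4% of all genes, and 1 was higher, against 15%. The 9 mitochondrial chaperones and proteases had medians of −0.04, 0.34 (0.04 in RPM) and 0.24. Hspe1 and Hspd1, the chaperonins of the mitochondrial matrix, were at 0.12 and −0.41 in AS, at 1.64 and 1.46 in RC4 and at 0.92 and 0.58 in RC8. Clpx, a subunit of a matrix protease, was at −0.98 in RC4. Regulators of respiratory genes and of mitochondrial DNA had medians of −0.15, −0.04 (−0.34 in RPM) and −0.10. Gabpa, a transcription factor of the ETS family that acts on many respiratory genes, was at −0.80 in AS on 701 reads in NT and 389 in AS. Pprc1, a coactivator related to Ppargc1a, was at −0.56 in AS and −0.63 in RC4. Twnk, the helicase of mitochondrial DNA, lay on the other side, at 0.58 in RC4 and 0.55 in RC8.

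Cytosolic ribosomal proteins and proteasome subunits are other large sets of abundant genes for complexes, and their values stand beside those of the members. The 78 ribosomal protein genes had medians of 0.11, 0.36 (0.06 in RPM) and −0.12. The 35 proteasome genes had 0.10, 0.40 (0.09 in RPM) and 0.31. The members differed from the proteasome genes in the counts at least 1.5-fold higher. In RC4 these were 12 of 35 proteasome genes but 1 of 86 members, against 15% of all genes. In RC8 they were 6 of 35 and 2 of 86, against 11.1% of all genes. No test of these differences was made, since genes are not replicates of a condition.

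**Figure D3:**
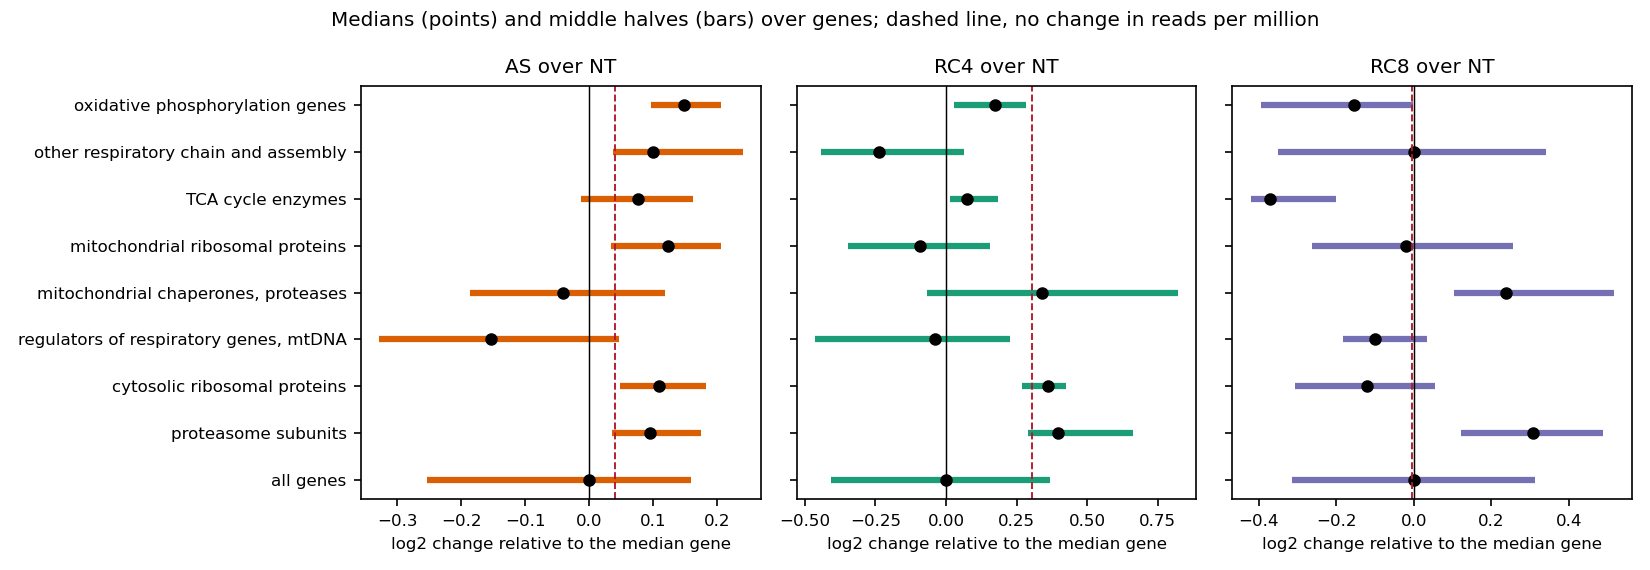
Medians (points) and quartile ranges (bars) of the log2 change relative to the median gene (x axis) for the members, 7 other gene lists and all genes in AS, RC4 and RC8 over NT. The dashed line marks no change in RPM. The members had medians of 0.15, 0.17 (−0.13 in RPM) and −0.15, and the TCA cycle enzymes had −0.37 in RC8.

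Most members had a few PASs, and the sites were close together. A single PAS was listed for 39.1% of members in AS (34 of 87; Wilson interval 29.5% to 49.6%) and for 37.2% in RC4 and RC8, against 49.4%, 47.0% and 48.7% of all genes. No member had more than 4 listed PASs. The 29 members with more than 1 PAS in the 3′-most exon in the AS table had a median distance of 167 nt between the first and last of these, against 805 nt over 4313 genes. Genes of this family are short. By GENCODE vM1 the coding sequence had a median of 435 nt among 79 members with a coding model, against 1419 nt over 8907 listed genes, and the 3′ untranslated part had a median of 159 nt against 932 nt.

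PASs in internal exons were listed for a larger share of members than of all genes, a difference that was not tested. Such a PAS was listed for 17 of 87 members in AS (19.5%), 16 of 86 in RC4 and 15 of 86 in RC8, while 3.11%, 3.31% and 2.97% of all genes had one. Among genes with at least 1000 reads in both libraries, the shares in AS were 20.5% of 73 members and 5.46% of 3809 genes. The share was 16.7% for ribosomal proteins, 14.3% for proteasome genes and 2.53% for mitochondrial ribosomal proteins in the same table. Internal-exon PASs took 4.46% of the members' reads in NT and 4.25% in AS, against 1.74% and 1.84% over all genes. Intronic PASs were listed for 14.9%, 17.4% and 16.3% of members in AS, RC4 and RC8, against 12.9%, 13.8% and 12.9% of all genes. Counted by PASs and not by genes, introns held 8.86% of the PASs of members and 9.15% of all PASs in AS. Of the 19 PASs of members typed as intronic over all tables, 7 lie in an intron of GENCODE vM1 and 8 in an exon of a non-coding transcript.

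Several of these internal-exon sites took large parts of a gene's reads. In NT they held 62.0% of the reads of Ndufa3, 47.2% of Cox5b, 47.1% of Atp5j2, 37.6% of Cox7a2, 36.3% of Ndufv1, 35.8% of Atp5b, 34.8% of Ndufc1, 34.4% of Ndufa12 and 33.7% of Ndufv3, as given in the AS table. Of 18 internal-exon PASs of members over all tables, 17 lie in a coding exon of GENCODE vM1. AATAAA or ATTAAA was found within 40 bases upstream in 2 of these 18 (11.1%), against 50% of the 126 PASs of members in the 3′-most exon. The same shares over all genes were 11.3% of 415 and 53.0% of 18269. A run of A just downstream, by the same rule, was found beside none of the 18, and beside 17.6% of the 415. No listed PAS of any gene has an A as its next base, and only downstream bases were searched. A run of A that ends at the PAS is therefore not counted, so the absence of downstream runs does not mean absence of runs at the sites. Windows of 30 bases ending at the internal-exon PAS, and at the last PAS of the same gene where shown, are given to let the sites be compared, with hexamers in capitals.
Atp5b, internal exon, chr10:127526172-127526201, plus strand: cccttgaaggagaccATTAAAggattccag
Atp5b, 3′-most exon, chr10:127527274-127527303, plus strand: atgtgatgttctctctgaagagtatttaaa
Atp5j2, internal exon, chr5:145945401-145945430, minus strand: tcagctactgcatttcttacaaggaactca
Atp5j2, 3′-most exon, chr5:145944575-145944604, minus strand: tagtgtccAATAAAaggtgactggttcaca
Cox5b, internal exon, chr1:36749357-36749386, plus strand: tcccgtccatcagcaacaagagaatagtgg
Cox5b, 3′-most exon, chr1:36750497-36750526, plus strand: gtgctgggATTAAAagtatctgccaccaca
Ndufa3, internal exon, chr7:3571051-3571080, plus strand: tagcccctacaccaagtatgctagcatgat
Ndufa3, last PAS, chr7:3571898-3571927, plus strand: gagcAATAAAcggtgacctagacaagtgta
The last PASs of Atp5j2, Cox5b and Ndufa3 have a hexamer and their internal-exon sites have none. The first PAS in the 3′-most exon of Ndufa3, not shown, has none either. Atp5b has ATTAAA at the internal-exon site and neither hexamer at the last PAS. MAAPER, the method the authors used to find PASs, divides reads between PASs by a model of the distance from read to PAS, so the fractions are estimates, and the part that short exons or nearby sites play in them was not tested.

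The fractions of most such sites moved by a few points between libraries. For Atp5j2 they were 47.1% in NT and 49.8%, 48.7% and 49.0% in AS, RC4 and RC8, and for Cox5b 47.2% in NT and 48.9%, 48.4% and 53.0%. Over all members, PASs outside the 3′-most and single exons held 10.1% of NT reads and 9.91% of AS reads, 10.2% and 9.06% in the RC4 table, and 10.2% and 9.83% in that of RC8. Over all genes these shares were 8.11% and 8.23%, 8.19% and 9.41%, and 8.09% and 8.28%. In RC4 the share of the members was therefore lower than in NT, and that of all genes was higher. These shares pool reads, so abundant genes weigh most. Per gene with such a PAS, the median change was −0.2, −1.85 and 1.05 points for members in AS, RC4 and RC8. Over all genes it was 0, 0.3 and 0. In RC8 the median member and the pooled share thus differed in direction.

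Changes of PAS fractions were smaller in members than in most genes with more than 1 PAS. A fraction differed from NT by at least 10 percentage points in 1 of 53 members in AS (1.89%), while RC4 had 4 of 54 (7.41%) and RC8 had 7 of 54 (13.0%). The same difference was seen in 15.2%, 29% and 26.9% of all genes with more than 1 listed PAS. Members have more reads, which lowers the counting error of a fraction. Among genes with at least 1000 reads in both libraries, it was 0 of 48 members in AS against 6.62% of genes, 2 of 47 in RC4 against 18.6%, and 6 of 47 in RC8 against 18.9%. The median of the largest change per gene was 1.90, 2.25 and 4.02 points for members and 4.2, 6.2 and 6 points over all genes. Members also had closer PASs in the 3′-most exon, with a median span of 167 nt in AS against 805 nt over all genes. The genes were not matched for spacing, and its part in these differences was not tested. The last PAS in the 3′-most exon was also taken as a share of the reads at PASs of that exon alone. This share was lower than in NT in 14 of 29 members in AS, 20 of 31 in RC4 and 16 of 31 in RC8. Of all genes with more than 1 PAS in that exon, it was lower in 66.1%, 67.7% and 55.0%.

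**Figure D4:**
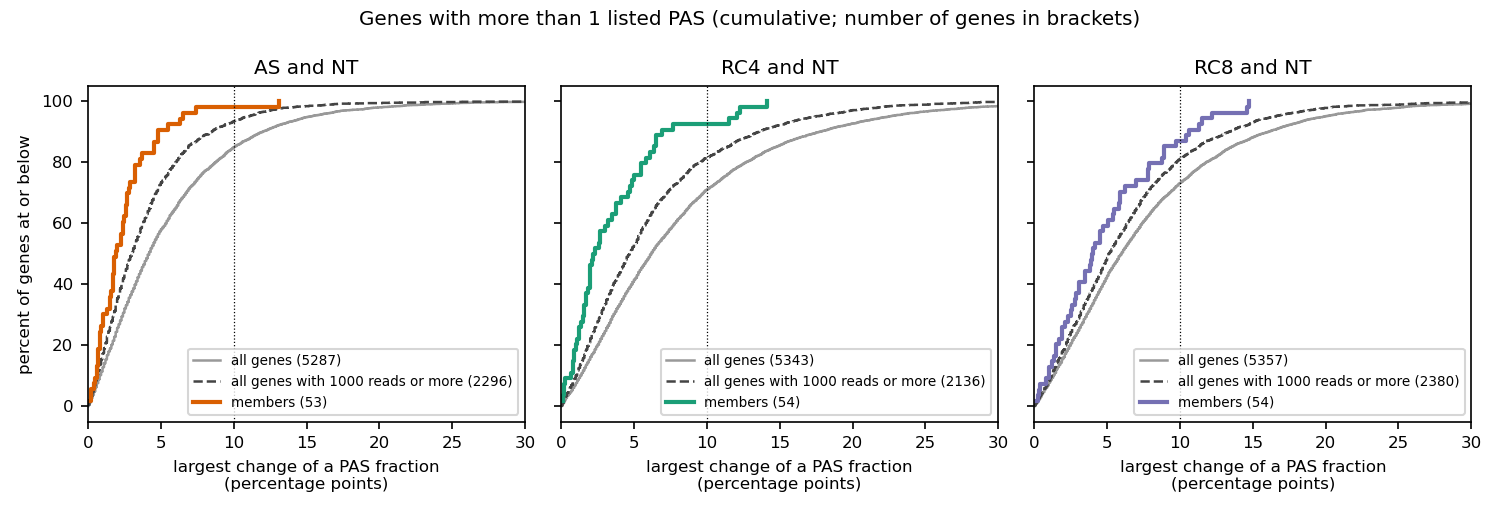
Cumulative percent of genes (y axis) by the largest change of a PAS fraction in percentage points (x axis), for genes with more than 1 listed PAS in each treated library against NT. The dotted line marks 10 points. The curves of the members lie to the left of those of all genes, also of genes with at least 1000 reads, and at 10 points 1.89%, 7.41% and 13.0% of members lie beyond.

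Ndufa4, named for complex I and now known as a subunit of cytochrome c oxidase, had the largest change of a fraction in RC8. Its first PAS held 20.6% of reads in NT and 5.89% in RC8 (5.34% to 6.49%), and in the tables of AS and RC4 the same site held 21.0% in NT, 17.3% in AS and 14.5% in RC4. The site was thus lower in each treated library than in NT, and by far the lowest in RC8. The PAS that gained lies 139 nt downstream, and the first one lies in a coding exon of GENCODE vM1. For Ndufa10, an accessory subunit of complex I, the first of 3 PASs held 31.9% of reads in NT and 17.3% in RC8, while it was at 29.5% in AS against 32.1% in NT. The RC4 table lists another middle PAS, and there the first held 42.0% of NT reads and 42.7% of RC4 reads. The middle PAS of Ndufa10 held 62.5% in NT and 74.6% in RC8. Windows of the PASs are shown because the sites of 1 gene differed in direction, listed here from 5′ to 3′ in each gene.
Ndufa4, first PAS, chr6:11850553-11850582, minus strand: gtgaatgtggactacagcaaactgaagaaa
Ndufa4, last PAS, chr6:11850414-11850443, minus strand: atgcatgaaatcatgttgattttttttttt
Ndufa10, first PAS, chr1:94336285-94336314, minus strand: gatcaagaaattgccagaaaaaaaaaaaaa
Ndufa10, middle PAS, chr1:94336134-94336163, minus strand: ggtctgctgaaagcccagctcccactggaa
Ndufa10, last PAS, chr1:94335594-94335623, minus strand: tttaacttaATTAAAacttaatgaaattta
The first PAS of Ndufa10 ends in a run of A of the genome, and among these 5 sites only the last PAS of Ndufa10 has a hexamer.

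Ndufc2, an accessory subunit of complex I, had 2 intronic PASs, of which the second held 58.8%, 57.8%, 44.7% and 48.1% of its reads across NT, AS, RC4 and RC8. The PAS in the 3′-most exon held 34.9%, 37.4%, 48.1% and 46.2% across NT, AS, RC4 and RC8. The first intronic PAS held 6.31%, 4.79%, 7.19% and 5.72% in the same order. The counting interval of the second intronic PAS in NT ran from 57.3% to 60.3%, with AS inside it and both recovery libraries below it. The gene as a whole had 177, 177, 128 and 133 RPM across NT, AS, RC4 and RC8.
Ndufc2, first intronic PAS, chr7:104554907-104554936, plus strand: aagtcatttcactctATTAAAaaaaaaaaa
Ndufc2, second intronic PAS, chr7:104555518-104555547, plus strand: aggtatctcgtgttaattgaaaatgaaaaa
Ndufc2, 3′-most exon, chr7:104556278-104556307, plus strand: taacactgttATTAAAatagttattacaaa
The first intronic site and the site in the 3′-most exon have a hexamer, and the second intronic site has none. By GENCODE vM1 the second intronic site lies in an exon of a non-coding transcript.

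In the assembly factor Ndufaf4, the middle one of 3 PASs held 58.2% of reads in NT and 71.3% in AS (68.2% to 74.3%), 70.3% in RC4 and 66.0% in RC8. All 3 treated libraries were above NT there, and the last PAS was at 29.3% in NT and 24.4%, 19.7% and 24.6% in the treated ones. The last PAS of Ndufaf7 held 16.8% of reads in NT (13.8% to 20.4%) and 5.30% in RC8 (3.59% to 7.76%), with AS at 14.8% and RC4 at 10.4% between them. Its level in RC8 was near that of NT, while the use of its last PAS was lowest there. Ndufa12 had 34.4%, 32.5%, 22.1% and 29.0% of reads at an internal-exon PAS across NT, AS, RC4 and RC8, and the PAS of the 3′-most exon took the rest. Ndufa3 had 25.2% of reads at the first PAS of its 3′-most exon in NT and 36.7% in RC4.
Ndufaf4, middle PAS, chr4:24829335-24829364, plus strand: gtcaatATTAAAttccactttctagtttaa
Ndufaf4, last PAS, chr4:24830618-24830647, plus strand: cacAATAAAatccttccattttgcacatta
Ndufaf7, first PAS, chr17:79346474-79346503, plus strand: aaAATAAAcaaaattcactttgcatattga
Ndufaf7, last PAS, chr17:79347248-79347277, plus strand: cgtaagaAATAAAagtcatagttagaaaaa
These 4 sites have a hexamer, while the first PAS of Ndufaf4, not shown, has none. The window of the first PAS of Ndufaf7 ends 5 bases before the PAS so that it holds the hexamer.

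Besides Ndufa4, the members of complexes III and IV with a difference of at least 10 points in RC8 were Uqcrc2, Uqcrh and Cox6b1. In Uqcrc2 the main PAS held 73.5% of reads in NT and 61.3% in RC8 (58.5% to 64.1%), and the internal-exon PAS held 3.89% and 9.18%. Uqcrh, the hinge protein of complex III, had 38.3% of reads at its first PAS in NT and 48.9% in RC8. Cox6b1, a subunit of complex IV, had 29.1% at its last PAS in NT and 39.5% in RC8. The last PAS of Uqcrh held 22.6% in NT and 16.8% in RC8, so the first site was higher in RC8 for Uqcrh and the last site for Cox6b1. The AS table lists a different single PAS for Cox6b1.
Cox6b1, first PAS, chr7:31402109-31402138, minus strand: ggaagatctgacctggctccgcccacctct
Cox6b1, last PAS, chr7:31401996-31402025, minus strand: tgcaactactAATAAAaactcactggaaaa
Uqcrh, first PAS, chr4:115739700-115739729, minus strand: ctcctcagccttgtcactgggaatcaggaa
Uqcrh, middle PAS, chr4:115739571-115739600, minus strand: cttcatcttAATAAActgatctgcaaactt
The first PASs of both genes have no hexamer, and the last PAS of Uqcrh, not shown, has none either.

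**Figure D5:**
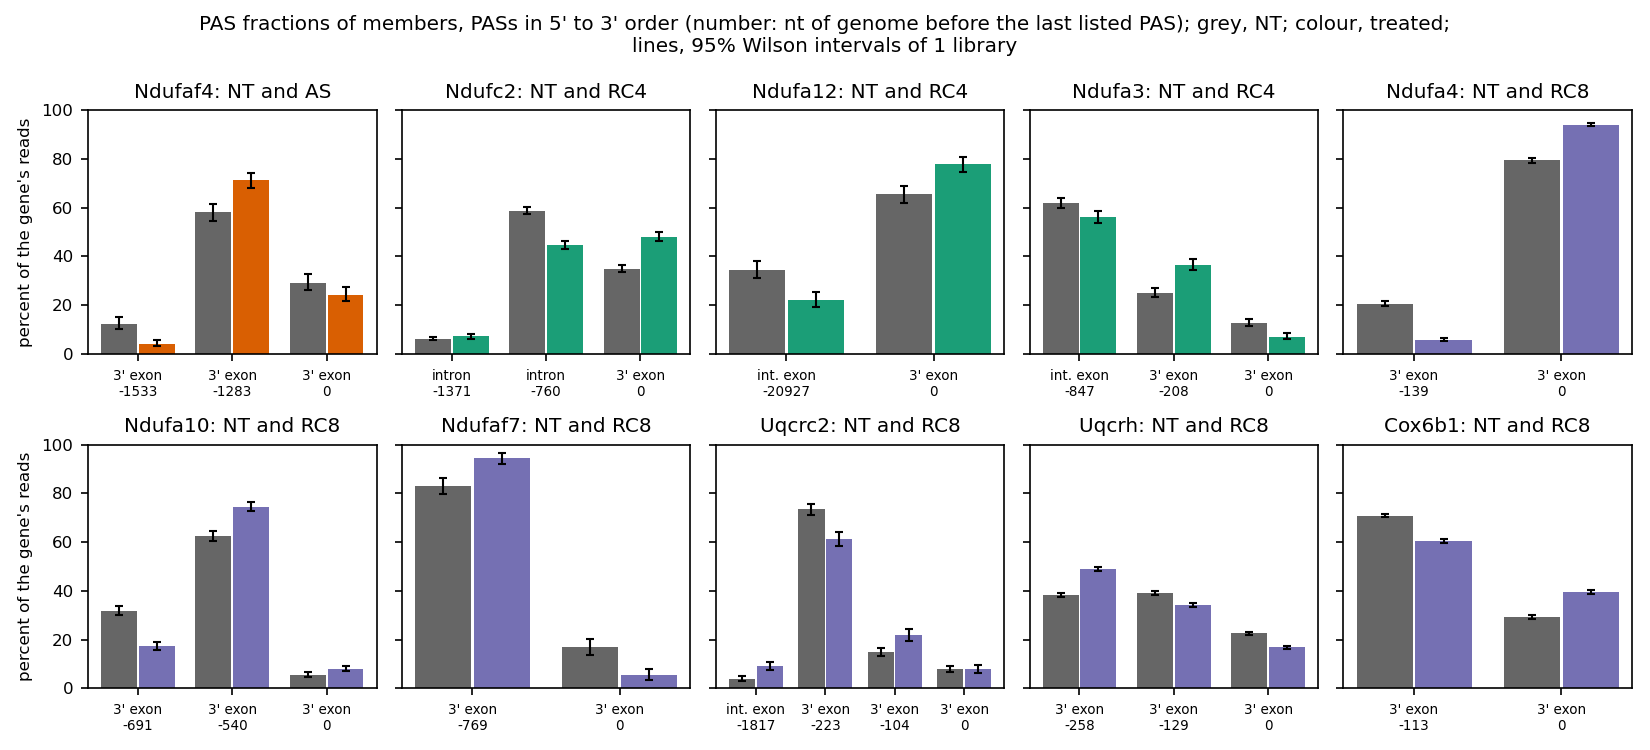
Percent of a gene's reads (y axis) at each listed PAS of 10 members, in 5′ to 3′ order, in NT (grey) and in the treated library named in each panel (colour). Lines are 95% Wilson intervals of 1 library, and the numbers under the PASs give the genomic distance in nt to the last PAS. In Ndufa4 the first PAS held 20.6% in NT and 5.89% in RC8.

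The promoters of the members were searched for short motifs of factors known for respiratory genes. RefSeq promoters of GRCm38.p6, from 250 bases before to 50 after each start, were matched by symbol for 69 of the 82 members that are not pseudogene copies. GCGCANGC, a part of the motif bound by the factor Nrf1, was found on either strand in 25 of the 69 (36.2%), against 24.99% of 7771 genes of the tables and 11.2% of the 27025 genes with a promoter in RefSeq. CCGGAAG, as in ETS factors such as Gabpa, was found in 26.1% against 22.3%, AAGATGGC, as in Yy1, in 14.5% against 6.15%, and TATAAA in 7.25% against 8.15%. Among the members with GCGCANGC were Sdhd, Sdha, Cycs and Atp5g2, whose changes lay on both sides of 0 in RC8. Stretches of their promoters in RefSeq are shown with the match in capitals, which for Cycs is the match on the other strand.
Sdhd, chr9:50603910-50603939 of GRCm38.p6, minus strand: ttcgctggggtGCGCACGCgcggtggcagc
Sdha, chr13:74350320-74350349 of GRCm38.p6, minus strand: gcgtttacaggGCGCAGGCgcaccaccact
Cycs, chr6:50566611-50566640 of GRCm38.p6, minus strand: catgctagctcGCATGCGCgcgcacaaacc
Atp5g2, chr15:102671071-102671100 of GRCm38.p6, minus strand: tggctccggccGCGCATGCgcagagccttc
A match in these letters is a description and not a site of binding.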

How the data were processed

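The authors trimmed QuantSeq FWD reads with bbmap, mapped them to mm9 with STAR (version 2.5.2a in the submitters' processing notes) and ran MAAPER with PASs of PolyA_DB, with a minimum of 50 reads per gene and a 5% proportion as the threshold at the step that predicts PASs, so a listed fraction can lie below it. The authors deposited whole-number read counts per gene in 2 columns per library (why there are 2 is not given in the sources used here), which were added, and the fraction of a gene's reads at each PAS. Condition 1 of each table was read as NT and condition 2 as the treated library, from the methods, since the column names give no sample. Columns of the authors' comparisons (P values, RED and RLD scores) were not used.

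Log2 ratios over NT were centred on the median of all genes of a table. Intervals are exact conditional binomial for ratios, exact Poisson for levels and Wilson for shares, at 95%. Reads carry no molecular identifiers, so intervals cover counting error only. Each library held 22441452 to 22996421 reads on genes. The functions were tested on simulated data. Python 3.11.15 with scipy 1.17.1 was used, and edgeR 4.0.16 for TMM factors. Members, lists and alternatives were chosen with earlier results of these data known. Named genes were the 3 highest and 3 lowest members per comparison with at least 200 reads in both libraries, complex I core and other main subunits, isoform genes, up to 8 members per comparison with a PAS change of at least 10 points, and at most 3 genes per other list. Others named (members past 1.5-fold, pseudogene copies, Sdhaf1 and examples in each complex) were chosen after their values were seen. PAS positions were read in NCBIM37 with GENCODE vM1. The values of 1 core subunit are not reported here.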

Additional observations from a re-analysis of the deposited data

How the results depend on the processing

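With 1 library per condition no replicate could be left out. No paired analysis was possible because each condition has 1 library. The median change of the members kept its direction under all alternatives in AS (0.11 to 0.20) and in RC8 (−0.18 to −0.12), and in RC4 under all but RPM, which gave −0.13, the highest being 0.23 with reads at PASs of the 3′-most or single exon alone. In AS it moved to 0.11 with RPM and 0.20 with the upper quartile. The other 32 medians, among them those with TMM factors, mean NT reads and without the pseudogene copies (added after seeing the data), stayed within an interval of the median over the members. Counts of members past the fold are small and moved easily. At a lower limit of fold, 2, 13 and 4 members were higher in AS, RC4 and RC8, and 26 were lower in RC8. At 2-fold, 0 were lower in AS, 0 higher in RC4, and 1 higher and 1 lower in RC8. With the whole counting interval past 1.5-fold, 0 were lower in AS, 0 higher in RC4, and 1 higher and 4 lower in RC8. With at least 200 reads, 0 were lower in AS, 0 higher and 1 lower in RC4, and 1 higher in RC8. With RPM, 0 were higher and 5 lower in RC4. With the mean NT reads, 2 were higher in RC4. The upper quartile gave 0 lower in AS. The first count column gave 1 higher in AS, and the second gave 0 lower in AS and 1 higher in RC8. Subunits alone gave 1 lower in RC4 and 1 higher in RC8. Members with 1 listed PAS gave 1 higher and 2 lower in RC8. A PAS fraction changed by at least 5 points in 5 of 53, 14 of 54 and 22 of 54 members and by 20 points in 0, 0 and 0. Over all genes with more than 1 listed PAS, the median of the largest change was 4.2, 6.2 and 6 points. In RC4 and RC8 that median itself lay above 5 points. With at least 1000 reads, also added after seeing the data, 0 members in AS and 2 in RC4 changed by 10 points. The cause of these shifts was not tested, beyond the fewer genes that stricter limits leave. Depth limited genes such as Atp5g2, Ndufb2 and Ndufaf6, whose intervals span more than those of abundant subunits.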
